A study of Homo sapiens with 20 samples.

Results

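Transcripts for the nuclear-encoded subunits of respiratory complexes II, III, IV and V, with cytochrome c, were measured in SKBr3, a human breast cancer line with amplified ERBB2, with 20 BeadChip arrays (Illumina HumanHT-12 v4). A gene was a member if its platform symbol was SDHA, SDHB, SDHC, SDHD, CYC1 or CYCS, or began with UQCR, with COX4, COX5, COX6, COX7 or COX8, or with ATP5, and if it was not a pseudogene. The rule took 50 symbols, of which the pseudogenes ATP5F1EP2 and UQCRBP1 (2 symbols) were left out. Of the 48 genes that remained, 42 had a probe detected on both arrays of at least 1 group (detection p-value under 0.01), among 9592 genes measured in all. They were 3 genes of complex II, 9 of complex III, CYCS itself, 12 genes of complex IV and 17 of complex V, and 40 of them were detected on all 20 arrays. The 6 genes without a kept probe were ATP5MK, detected on at most 3 arrays, and COX4I2, COX6A2, COX6B2, COX7A1 and COX8C, detected on 0 arrays. SDHB and UQCRFS1 were not analysed here.

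The arrays fell into 10 groups of 2 samples each. Lapatinib-resistant LRSKBr3 cells and their parental pSKBr3 cells (labelled DMSO) made up 4 of the groups, and SKBr3 cells deprived of serum and given EGF, heregulin (HRG) or vehicle (here called starved) made up the other 6. In each of these 5 settings, cells had been transfected for 60 h with an siRNA pool against the orphan nuclear receptor ERRα (siERRα, gene ESRRA) or with a control pool (siC). EGF and HRG, ligands of the ERBB receptor family, were given at a labelled 100 µM for 24 h, whereas the study's methods state a shorter treatment. The labels disagree on the length of serum withdrawal (24 or 48 h) and on the lapatinib in the medium of LRSKBr3 cells (2 or 1 µM). LRSKBr3 cells were kept in lapatinib, which inhibits the kinases EGFR and ERBB2, so that resistance and the presence of the drug cannot be told apart. The sources used here do not say whether LRSKBr3 is 1 clone. Whether both samples of a group stem from separate cultures is not labelled. The p-values therefore measure only the spread between these samples, and it may be technical. In these bulk samples, a lower value from fewer expressing cells and one from less RNA per cell cannot be told apart.

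The respiratory chain passes electrons from NADH and succinate to oxygen, pumps protons across the inner mitochondrial membrane, and lets the ATP synthase use their return to make ATP. Complex II is succinate dehydrogenase, which also serves the TCA cycle. Complex III hands electrons to cytochrome c, complex IV (cytochrome c oxidase) hands them to oxygen, and complex V is the ATP synthase. Except for complex II, the complexes combine subunits encoded in the nucleus with subunits encoded by mitochondrial DNA, and several nuclear subunits of complex IV come in tissue-specific isoforms. ERRα, the coactivators of the PGC-1 family, NRF1 and the ETS-family factor GABP are known regulators of such genes. The study named oxidative phosphorylation among the pathways it found with these same arrays, so that a direction shared by these genes is not independent evidence.

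EGF siERRα replicate 1 was an array that stood apart. It had 12151 detected probes, against 12582 to 15177 on the other 19 arrays, and its correlation with them over all genes was 0.83 to 0.876, against at least 0.933 among the others. The fit used all 20 arrays, and values without that array (19 arrays) are given beside many of its results. Where none is given, the value is that of 20 arrays. The median residual SD of the members was 0.213 on the log2 scale with 20 arrays and 0.117 with 19 arrays. The smaller SD follows from removing the spread between the EGF siERRα arrays, whichever of them is left out, and does not make the calls on 19 arrays more secure. Of 10 markers of ERBB2-amplified luminal cells, 6 were detected on all 20 arrays (ERBB2, GRB7, KRT8, KRT19, EPCAM and TFAP2A), with ERBB2 between 13.79 and 14.59 (log2 intensity). KRT18 was detected on 19 arrays, GATA3 on 16, ESRP1 on 1 and CDH1 on 0. Of the markers of other cell types, PTPRC, CD3E, PECAM1, COL1A1, COL1A2, DCN, LUM, KRT5 and KRT14 were detected on 0 arrays and COL3A1 on 1, while CDH5 was detected on 19, CD14 on 10, VWF on 9 and LYZ on 6.

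Promoter sequences give the regulatory context of the genes, and 33 of the 42 members were found in the RefSeq promoter table (GRCh38.p14, 250 bases before to 50 bases after the annotated start). ATP5F1B, ATP5F1D, ATP5MC3, ATP5MF, COX6C, CYC1, SDHC, UQCRB and UQCRHL were the other 9. Both strands were searched for TNAAGGTCA (the ERRα response element), GCATGCGC (an NRF1 motif) and CCGGAAGT (an ETS motif of the kind GABP binds). The NRF1 motif was found in 8 members (24.2%), against 3.05% of all 35116 promoters. The ETS motif was found in 7 members (21.2%), against 4.14% of all promoters. The ERRα element was found in 1 member (3.03%), SDHD, against 0.951% of all promoters. The 35116 promoters were not limited to genes measured on these arrays, so that these shares come from unlike sets. The windows shown are those of 3 members, each 220 bases long on the gene's own strand with 190 bases before the start: SDHD, the member with all 3 motifs, COX5B, which held NRF1 and ETS matches, and CYCS, which held an NRF1 match. Capitals mark the motif matches on either strand.
SDHD (chr11:112086683-112086902, plus strand): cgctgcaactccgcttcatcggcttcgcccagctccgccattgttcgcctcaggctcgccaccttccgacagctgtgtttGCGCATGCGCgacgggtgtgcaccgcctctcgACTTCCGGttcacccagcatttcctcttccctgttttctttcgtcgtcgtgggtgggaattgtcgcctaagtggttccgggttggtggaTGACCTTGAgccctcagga
COX5B (chr2:97645872-97646091, plus strand): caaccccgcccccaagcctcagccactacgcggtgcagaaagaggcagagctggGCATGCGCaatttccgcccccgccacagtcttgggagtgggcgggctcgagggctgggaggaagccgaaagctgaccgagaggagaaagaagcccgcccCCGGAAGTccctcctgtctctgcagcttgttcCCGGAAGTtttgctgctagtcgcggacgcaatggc
CYCS (chr7:25125231-25125450, minus strand): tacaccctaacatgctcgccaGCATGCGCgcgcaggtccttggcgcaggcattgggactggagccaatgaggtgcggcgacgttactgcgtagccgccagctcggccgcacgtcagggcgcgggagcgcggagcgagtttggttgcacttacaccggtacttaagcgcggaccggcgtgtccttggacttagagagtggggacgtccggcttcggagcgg
In SDHD, the ERRα element began 11 bases after the start on the reverse strand, the ETS match lay 78 bases before the start, and the pair of NRF1 matches, at 110 and 108 bases before it, overlap and are the same stretch read on either strand, as was also the case in ATP5F1C. In COX5B, the NRF1 match lay 136 bases before the start and the ETS matches 37 and 5 bases before it. The NRF1 match of CYCS lay 169 bases before the start. A match is a description of the letters in the window and does not show binding.

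ERRα depletion lowered its own transcript. ESRRA had log2 intensities of 6.39 and 6.41 in siERRα LRSKBr3 cells, against 8.87 and 9.15 in siC LRSKBr3 cells. In pSKBr3 cells the values were 7.60 and 8.02 with siERRα, against 9.12 and 9.15 with siC. In EGF-treated cells they were 7.25 and 8.16 with siERRα and 8.97 and 9.02 with siC, in HRG-treated cells 7.73 and 7.59 with siERRα and 8.52 and 8.79 with siC, and in starved cells 7.29 and 8.18 with siERRα and 8.71 and 9.04 with siC. The groups did not overlap in any of the 5 settings, and the siERRα values of LRSKBr3 cells lay below those of every other siERRα array. The mean difference of the 5 settings was -1.47 for ESRRA (SE 0.136, limma adjusted p = 0.00052; 19 arrays, -1.38, adjusted p = 0.000175).

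Members of complexes II to V had slightly lower values in siERRα cells than in siC cells in most settings, but no single member passed the test. Averaged over the 5 settings, the median log2 difference of the 42 members was -0.18 (siERRα minus siC), against 0.01 for all 9592 genes, and 39 members had a negative difference. On 19 arrays the median was -0.14, and 41 members were negative. With limma, 0 members were called at an adjusted p under 0.05, against 0.0104% of all genes, which was ESRRA alone (19 arrays, 0 members against 0.0209%). At an unadjusted p under 0.05, 15 members were lower and 0 higher, against 420 genes lower and 407 higher over the whole table. The methods' t-test, which was run within each setting, also called 0 members in each after Benjamini-Hochberg adjustment.

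**Figure D1:**
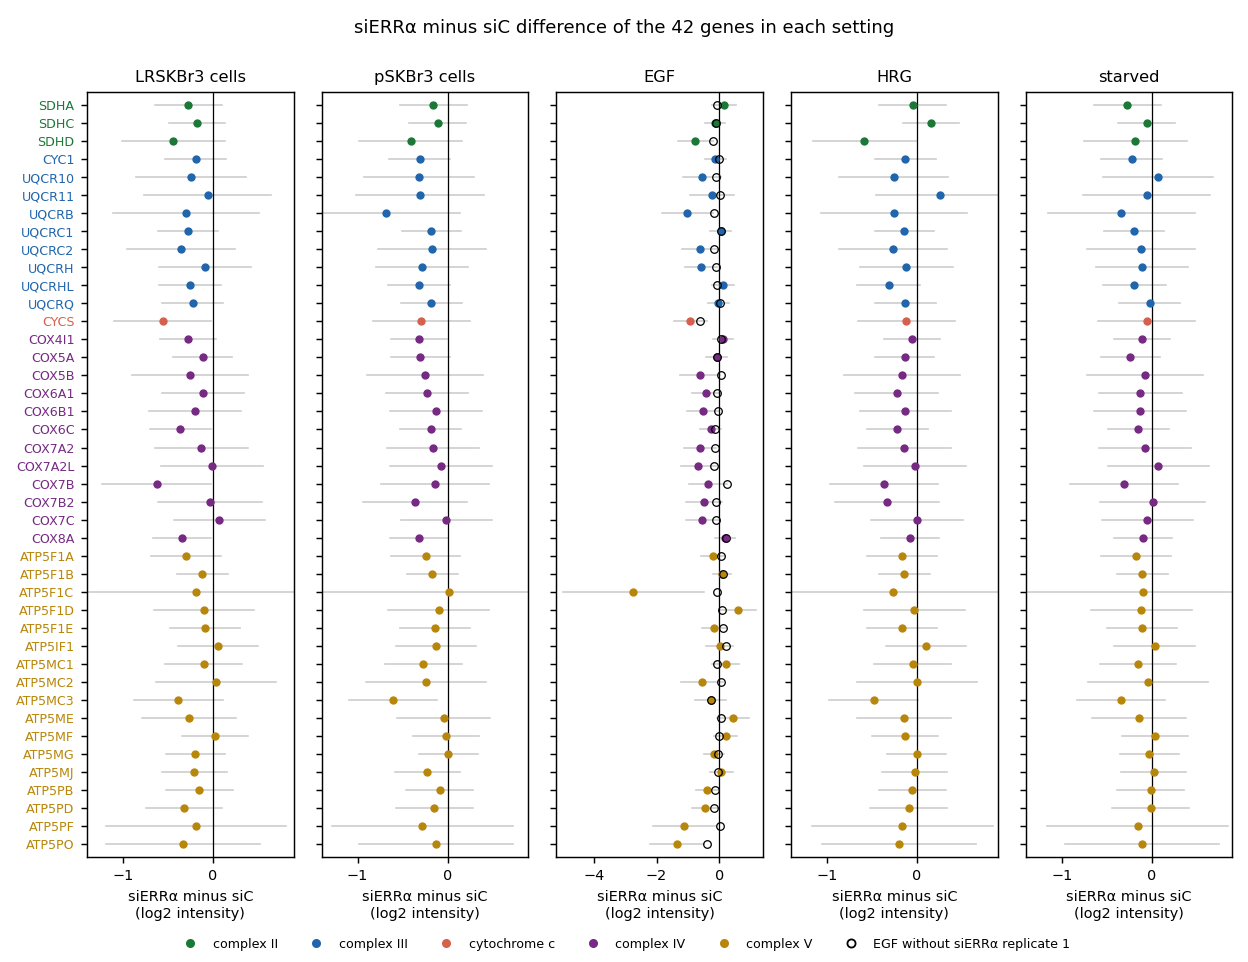
Difference between siERRα and siC cells for the 42 members, in log2 units on the x axis, grouped by complex down the page, with a panel for each of LRSKBr3, pSKBr3, EGF-treated, HRG-treated and starved cells. Filled points are differences of group means (2 arrays each) with 95% confidence intervals as grey lines, cut at the panel edge where they run beyond it, and open circles in the EGF panel are the values without siERRα replicate 1. The EGF panel has a wider axis, and most points of the other panels lie to the left of 0.

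In each setting the direction was the same and the spread wide. The median of the members was -0.19 in LRSKBr3 cells, with 38 of 42 negative, and -0.18 in pSKBr3 cells, with 40 negative. It was -0.14 in HRG-treated cells, with 37 negative, and -0.11 in starved cells, with 36 negative. In EGF-treated cells it was -0.27 with 30 negative, and -0.07 with 26 negative on 19 arrays, so that the size in this setting rested on replicate 1. No array is shared between settings in these comparisons. In limma, 0 members were called in any of the 5 settings, against 0.0104% of genes in LRSKBr3 cells, 0% in pSKBr3 cells, 0.073% with EGF, 0% with HRG and 0.0104% in starved cells (on 19 arrays 0.0521%, 0%, 0%, 0.0104% and 0.0104% in the same order, again with 0 members). The siRNA target ESRRA was itself called in LRSKBr3 cells only. At an unadjusted p under 0.05, 4 members were lower in LRSKBr3 cells (178 of all genes), 2 in pSKBr3 cells (104), 1 in HRG-treated cells (140) and 0 in starved cells (85), and 0 were higher. In EGF-treated cells 13 members were lower and 1 higher, against 1160 and 1145 of all genes, and on 19 arrays 2 members were lower, against 385 of all genes.

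Separation of the single arrays is given beside the share of all genes that separated the same way. Both siERRα arrays lay below both siC arrays for 26 members in LRSKBr3 cells (19.2% of all genes), 27 in pSKBr3 cells (18.2%), 17 in EGF-treated cells (16.4%), 23 in HRG-treated cells (14.8%) and 19 in starved cells (15.7%). The mean of siERRα cells was below that of siC cells in all 5 settings for 21 members (18 on 19 arrays), against 5.82% of all genes. In the 4 settings other than EGF this held for 30 members, against 10.2% of all genes. These 4 settings alone gave a median of -0.16, with 40 members negative and 0 called. Over all 9592 genes the median was 0.004, with 4640 negative and 1 called by limma, which was ESRRA. UQCRB, ATP5MC3 and ATP5PO were the members whose siERRα arrays lay below the siC arrays in every setting. The share of all genes that did so was not determined. For UQCRB the margin in EGF-treated cells was small (8.71 with siERRα against 8.76 with siC).

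In complex II, the median over the 3 measured members was -0.12 (19 arrays, -0.17) and all 3 were negative. SDHD, a membrane anchor of succinate dehydrogenase, had 9.80 and 9.77 in siERRα LRSKBr3 cells, against 10.31 and 10.13 in siC LRSKBr3 cells. It had 9.76 and 9.93 in siERRα pSKBr3 cells, against 10.22 and 10.29 in siC pSKBr3 cells. In HRG-treated cells it had 9.47 and 9.70 with siERRα, against 10.13 and 10.21 with siC. The groups did not overlap in these 3 settings. In EGF-treated cells SDHD had 8.57 and 9.67 with siERRα, against 10.00 and 9.77 with siC, and in starved cells 9.88 and 10.05 with siERRα, against 10.26 and 10.03 with siC. The starved groups overlapped, and in EGF-treated cells the lowest value was that of the array that stood apart. The limma average difference was -0.48 (SE 0.118, adjusted p = 0.303; 19 arrays, -0.37, adjusted p = 0.0804). SDHA, the flavoprotein subunit that oxidizes succinate, averaged -0.12 (adjusted p = 0.631). By this probe it had the smallest p of the members in starved cells, at 10.84 and 10.91 with siERRα and 11.20 and 11.09 with siC. A second SDHA probe averaged -0.44, with -1.94 in EGF-treated and -0.06 in starved cells. Its correlation with the first probe over the 20 arrays was -0.363, so that the values of SDHA are uncertain. SDHC, the other membrane anchor, averaged -0.06 (adjusted p = 0.741).

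In complex III, all 9 members were negative on average, with a median of -0.19 (19 arrays, -0.17), and 5 had an unadjusted p under 0.05 (19 arrays, 4). UQCRB, a ubiquinone-binding subunit, had the largest average difference of the 9 at -0.52 (SE 0.169, adjusted p = 0.463; 19 arrays, -0.35, adjusted p = 0.135). Its values were 8.24 and 8.60 in siERRα LRSKBr3 cells, against 8.80 and 8.64 in siC LRSKBr3 cells, and 8.41 and 8.82 in siERRα pSKBr3 cells, against 9.41 and 9.19 in siC pSKBr3 cells. In the serum-deprived cells they were 7.0 and 8.71 with EGF and siERRα against 8.76 and 8.97 with siC, 8.33 and 8.56 with HRG and siERRα against 8.72 and 8.70 with siC, and 8.71 and 8.84 in starved siERRα cells against 9.16 and 9.07 in starved siC cells. The siERRα array that stood apart was again the lowest. The core protein UQCRC2 (-0.30), the hinge protein UQCRH (-0.23), its near-identical copy UQCRHL (-0.19) and the haem-carrying CYC1 (-0.19) were the other members with an unadjusted p under 0.05, with adjusted p-values between 0.479 and 0.572. Probes of UQCRH and UQCRHL may read each other's transcripts, so that both values are uncertain.

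Cytochrome c (CYCS), the mobile carrier between complexes III and IV and a trigger of apoptosis once in the cytosol, averaged -0.39 (SE 0.112, limma adjusted p = 0.413; 19 arrays, -0.32, adjusted p = 0.249). Its values were 6.60 and 6.31 in siERRα LRSKBr3 cells, against 6.91 and 7.11 in siC LRSKBr3 cells, and 7.08 and 7.59 in siERRα pSKBr3 cells, against 7.64 and 7.62 in siC pSKBr3 cells. Both siERRα arrays lay below both siC arrays in these 2 settings. In EGF-treated cells the difference was -0.92, and -0.60 without the array that stood apart. In HRG-treated and starved cells the differences were -0.12 and -0.05, and the siERRα and siC arrays overlapped. Across 30 alternative ways of processing or sets of arrays, the average of CYCS ran between -0.481 and -0.151.

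In complex IV, all 12 members were negative on average, with a median of -0.22 (19 arrays, -0.14), and 4 had an unadjusted p under 0.05. These were COX6C (-0.24, adjusted p = 0.432), COX7B (-0.36, adjusted p = 0.47), COX6A1 (-0.22, adjusted p = 0.551) and the structural subunit COX5A (-0.17, adjusted p = 0.511), while the small subunit COX7C averaged -0.11 (adjusted p = 0.722). COX7B had 11.55 and 11.55 in siERRα LRSKBr3 cells, against 12.28 and 12.06 in siC LRSKBr3 cells, a difference of -0.62 without overlap of the arrays. Its values in pSKBr3 cells were 12.09 and 12.22 with siERRα, against 12.26 and 12.33 with siC. COX6C had 12.85 and 13.01 in siERRα LRSKBr3 cells, against 13.17 and 13.40 in siC LRSKBr3 cells. In the same cells COX8A, a small membrane subunit, had 13.12 and 13.18 with siERRα, against 13.50 and 13.50 with siC, a difference of -0.35, and in pSKBr3 cells it had 13.46 and 13.58 with siERRα against 13.86 and 13.81 with siC, a difference of -0.31. COX4I1, a core nuclear subunit, had 13.56 and 13.71 in siERRα pSKBr3 cells, against 13.96 and 13.94 in siC pSKBr3 cells, a difference of -0.32.

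In complex V, the ATP synthase, 14 of 17 members were negative on average, with a median of -0.13 (19 arrays, 16 negative and -0.09), and 4 had an unadjusted p under 0.05. ATP5MC3, 1 of 3 genes that encode the same mature c subunit of the rotor ring, averaged -0.42 (SE 0.102, limma adjusted p = 0.296; 19 arrays, -0.41, adjusted p = 0.167). Its values were 5.90 and 5.82 in siERRα LRSKBr3 cells against 6.47 and 6.01 in siC LRSKBr3 cells, and 6.38 and 6.64 in siERRα pSKBr3 cells against 6.94 and 7.28 in siC pSKBr3 cells. The differences in the other settings included -0.48 in HRG-treated and -0.34 in starved cells. Across 30 alternative ways of processing or sets of arrays, the average of ATP5MC3 ran between -0.494 and -0.118. The other 2 genes of the c subunit averaged -0.07 for ATP5MC1 (adjusted p = 0.771) and -0.16 for ATP5MC2 (adjusted p = 0.706) by their brightest probes, while their second probes averaged -0.58 and -0.56, so that the 3 genes are not set in an order. ATP5PO, a stalk subunit that confers oligomycin sensitivity, averaged -0.42 (adjusted p = 0.551), and -0.23 on 19 arrays. It had 12.56 and 12.63 in siERRα LRSKBr3 cells, against 12.94 and 12.92 in siC LRSKBr3 cells, and 10.34 and 12.26 in EGF-treated siERRα cells, against 12.46 and 12.84 in EGF-treated siC cells. In the catalytic head, ATP5F1A averaged -0.21 (adjusted p = 0.496) and the catalytic subunit ATP5F1B -0.09 (adjusted p = 0.632), and the stalk subunit ATP5PD -0.20 (adjusted p = 0.551). The 3 members with a positive average were ATP5F1D (0.06; 19 arrays, -0.05), ATP5MF (0.02; 19 arrays, -0.02) and ATP5IF1 (0.01; 19 arrays, 0.06), of which ATP5IF1, the inhibitor that stops the enzyme from hydrolysing ATP, was below siC in 1 of the 5 settings by its brightest probe, whereas a second ATP5IF1 probe averaged -0.33 and was lower in all 5. ATP5F1C, the central rotor shaft, had 5.74 on the EGF siERRα array that stood apart and 11.07 on the other, against 11.07 and 11.22 in EGF-treated siC cells, so that its difference in EGF-treated cells was -2.74 on 20 arrays and -0.07 on 19.

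**Figure D2:**
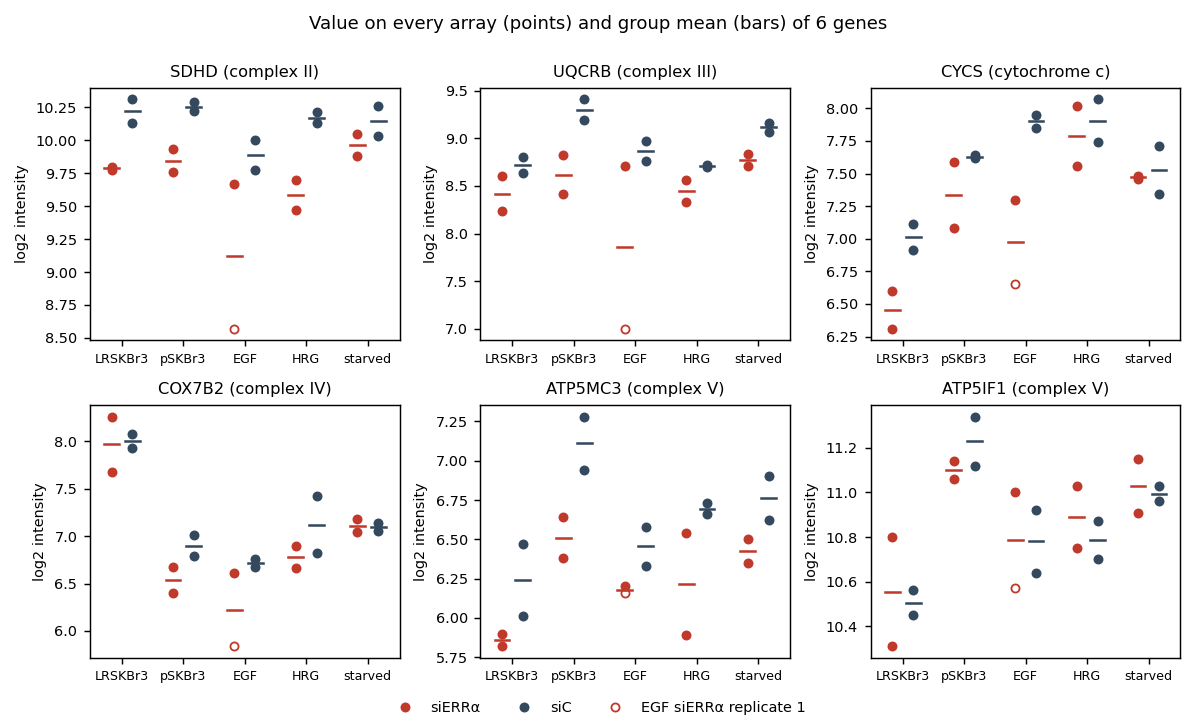
Log2 intensity (y axis) on every array for SDHD, UQCRB, CYCS, COX7B2, ATP5MC3 and ATP5IF1, with siERRα left of siC in each setting. Points are single arrays, bars are means of the 2 arrays, and open points are EGF siERRα replicate 1, which read 8.57 for SDHD and 7.0 for UQCRB. In UQCRB and ATP5MC3 the siERRα points lie below the siC points in all 5 settings, and the COX7B2 points of LRSKBr3 cells lie above those of pSKBr3 cells.

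Other probes of the members mostly pointed the same way. Of 59 kept probes, 17 were second or further probes of a member, spread over 15 genes, and 16 of the 17 had the sign of the probe used in the average over the 5 settings. The median difference of the 8 members with an NRF1 match in their promoter window was -0.33, against -0.14 for the 25 without. On 19 arrays these medians were -0.15 and -0.13, so that the gap rested on EGF siERRα replicate 1. For the ETS motif the medians were -0.20 in 7 members with a match and -0.17 in 26 without.

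Complex I subunits and assembly factors of complexes II to V were compared as the other nuclear genes of the same pathway. Averaged over the 5 settings, 33 measured complex I subunits had a median of -0.05, with 27 negative, and 35 measured assembly factors had a median of -0.01, with 20 negative. On 19 arrays the medians were -0.08, with 26 negative, and 0.002, with 17 negative, against -0.14 for the members. In both lists 0 genes were called with limma. At an unadjusted p under 0.05 there were 5 complex I subunits and 1 assembly factor, all lower, against 420 of all genes lower. On 19 arrays there were 5 and 6, again all lower, against 584 of all genes lower. The methods' t-test does not apply to an average over settings. The difference between these lists and the members was not tested. Of 9 regulators of the respiratory genes, 7 were measured, and PPARGC1A and NRF1 were not. GABPA, the DNA-binding subunit of GABP, fell in EGF-treated cells with siERRα, where it was below detection on both arrays, by at least 1.25-fold (values of 4.67 and 5.19 with siERRα, against 6.33 and 6.39 with siC; adjusted p = 0.0328). On 19 arrays its adjusted p was 0.164.

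Between LRSKBr3 and pSKBr3 cells, most members were lower in the resistant cells, and COX7B2 was the 1 member called higher. In siERRα cells the median difference of the 42 members was -0.23 (LRSKBr3 minus pSKBr3), with 34 negative, against -0.00 for all genes. In siC cells it was -0.24, also with 34 negative, against 0.02 for all genes. In siERRα cells limma called 1 member, higher in LRSKBr3, against 5% of all genes, and on 19 arrays 8 members, 1 higher and 7 lower, against 11.2%. In siC cells it called 2 members, 1 higher and 1 lower, against 4.5% of all genes (205 higher and 227 lower), and on 19 arrays 3 members, against 10.2%. On 20 arrays the share of members called was near or below the background. Beside this comparison, ESRRA in siERRα cells was itself lower in LRSKBr3 than in pSKBr3 cells, by 1.41 on the log2 scale (means 6.40 and 7.81, adjusted p = 0.0161), so that the ESRRA level left after transfection differed between the siERRα groups.

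COX7B2, an isoform of COX7B known chiefly from testis, rose in LRSKBr3 cells. It had 7.68 and 8.26 in siERRα LRSKBr3 cells, against 6.40 and 6.67 in siERRα pSKBr3 cells, and 7.93 and 8.08 in siC LRSKBr3 cells, against 7.01 and 6.79 in siC pSKBr3 cells. All 4 LRSKBr3 arrays lay above all 4 pSKBr3 arrays. The differences were 1.43 in siERRα cells (SE 0.269, adjusted p = 0.00702; 19 arrays, 0.00107) and 1.10 in siC cells (SE 0.269, adjusted p = 0.033; 19 arrays, 0.00623). The size depended on the background step, at 0.85 and 0.69 without background correction and 0.59 and 0.49 in the authors' table, in siERRα and siC cells in this order. The call in siERRα cells was lost without LRSKBr3 siERRα replicate 2 (adjusted p = 0.0977) or pSKBr3 siERRα replicate 1 (adjusted p = 0.0753). That in siC cells was lost without any 1 of the 4 arrays compared (adjusted p between 0.111 and 0.23). Its paralogue COX7B differed by -0.61 in siERRα cells (adjusted p = 0.297; 19 arrays, 0.0145) and by -0.12 in siC cells (adjusted p = 0.919).

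ATP5MC3 fell in siC LRSKBr3 cells. It had 6.47 and 6.01, against 6.94 and 7.28 in siC pSKBr3 cells, a difference of -0.87 (SE 0.228, adjusted p = 0.0459; 19 arrays, 0.0237), and the arrays did not overlap. In siERRα cells the difference was -0.65 (adjusted p = 0.144; 19 arrays, 0.0808). The call in siC cells lay close to the threshold, and leaving out 1 array, of those compared or of most other groups, ended it (adjusted p up to 0.377 without LRSKBr3 siC replicate 2). The size of the ATP5MC3 difference in siC cells depended on the background step, at -0.43 without background correction and -0.29 in the authors' table. ATP5MC1 differed by -0.28 and ATP5MC2 by -0.13 in siC cells, with adjusted p-values of 0.589 and 0.923, and their second probes by -0.67 and -0.02. ATP5IF1 had 10.45 and 10.56 in siC LRSKBr3 cells, against 11.34 and 11.12 in siC pSKBr3 cells, a difference of -0.73 that missed the threshold on 20 arrays (adjusted p = 0.0656) and passed on 19 (0.021). In siERRα cells ATP5IF1 had 10.31 and 10.80 in LRSKBr3 and 11.06 and 11.14 in pSKBr3 cells, again without overlap.

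On 19 arrays, 7 further members fell in siERRα LRSKBr3 cells relative to siERRα pSKBr3 cells, none of which passed on 20 arrays with the same processing. CYCS differed by -0.88 (19 arrays, adjusted p = 0.0165), with 6.60 and 6.31 in LRSKBr3 cells against 7.08 and 7.59 in pSKBr3 cells. UQCRC1, a core protein of complex III, differed by -0.57 (adjusted p = 0.0212), with 10.97 and 10.76 in LRSKBr3 cells against 11.50 and 11.36 in pSKBr3 cells. SDHC differed by -0.47 (adjusted p = 0.0382), with 10.91 and 10.86 against 11.39 and 11.32. The arrays of these genes did not overlap between the cell lines. For CYCS the size depended on the background step, at -0.472 without background correction and -0.315 in the authors' table. In complex IV, COX6C differed by -0.58 (adjusted p = 0.0159) and COX7B by -0.61 (adjusted p = 0.0145). In complex V, ATP5F1C differed by -0.61 (adjusted p = 0.0216) and the peripheral-stalk subunit ATP5PB by -0.45 (adjusted p = 0.0415). In siC cells the same genes had differences of -0.62 for CYCS, -0.47 for UQCRC1, -0.41 for SDHC, -0.40 for COX6C, -0.12 for COX7B, -0.42 for ATP5F1C and -0.39 for ATP5PB, and none passed on 19 or 20 arrays. CYC1, which carries the haem of complex III, had 12.51 and 12.36 in siC LRSKBr3 cells, against 12.78 and 12.97 in siC pSKBr3 cells, a difference of -0.44 (adjusted p = 0.161).

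**Figure D3:**
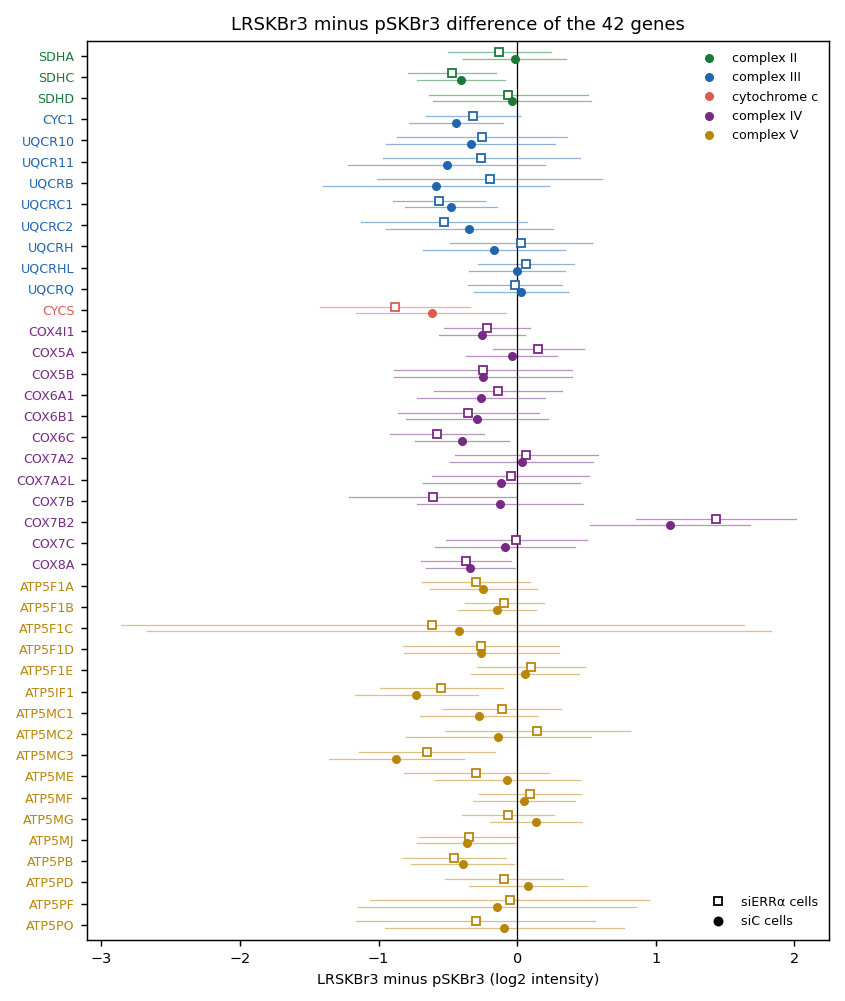
Difference between LRSKBr3 and pSKBr3 cells for the 42 members, in log2 units on the x axis, grouped by complex. Squares are siERRα cells and filled circles siC cells, each a difference of means of 2 arrays with its 95% confidence interval from the fit of 20 arrays. COX7B2 lies at 1.43 and 1.10, and most other members lie to the left of 0.

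The resistant and parental groups of the siERRα and siC cells share no array, and the members were placed alike in both. In siERRα and siC cells alike, 31 members had a lower mean in LRSKBr3 cells, against 36.3% of all genes, 5 had a higher mean in both, and 6 changed sign. Both LRSKBr3 arrays lay below both pSKBr3 arrays for 19 members in siERRα cells (27.7% of all genes) and for 27 in siC cells (27.9%). Across the 42 genes, which are not independent replicates, the differences in siERRα and siC cells had a Pearson correlation of 0.872 and a Spearman correlation of 0.776 (0.754 and 0.759 without COX7B2), against 0.789 and 0.672 over all genes. Of 17 further probes of the members, 13 had the sign of the probe used in siC cells. The brightest probe of SDHA differed by -0.02 and a second probe by -0.51. Markers of other cell types also moved with this comparison. Group means of CDH5 were 7.24 in LRSKBr3 and 5.71 in pSKBr3 cells with siERRα, and 7.45 in LRSKBr3 and 6.18 in pSKBr3 cells with siC. Those of VWF were 7.25 in LRSKBr3 and 5.51 in pSKBr3 cells with siERRα, and 6.71 in LRSKBr3 and 5.74 in pSKBr3 cells with siC. PECAM1 and PTPRC were detected on 0 arrays, and the part of these markers in the result was not tested.

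Among the isoform pairs of complex IV, only the common isoform was measured for COX4I1, COX6A1, COX6B1, COX7A2 and COX8A, since COX4I2, COX6A2, COX6B2, COX7A1 and COX8C were detected on 0 arrays. COX6A1 differed between LRSKBr3 and pSKBr3 siC cells by -0.26 (adjusted p = 0.659), COX6B1 by -0.29 (adjusted p = 0.659), COX7A2 by 0.03 (adjusted p = 0.974) and COX8A by -0.34 (adjusted p = 0.283). COX7A2L, known for joining complexes III and IV into supercomplexes, differed by -0.11 (adjusted p = 0.923).

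The siERRα response of LRSKBr3 cells was not shown to differ from that of pSKBr3 cells. The median of the difference in response (LRSKBr3 minus pSKBr3) was 0.03 over the 42 members, with 0 members called by limma against 0% of all genes on 20 and on 19 arrays, and 0 members at an unadjusted p under 0.05 on 20 arrays (61 of all genes higher and 86 lower). COX7B had the smallest p among them, with a difference of -0.48 (95% interval -1.33 to 0.367, adjusted p = 1). That of ATP5MG, a membrane-stalk subunit, was -0.20 (95% interval -0.671 to 0.263) and that of COX5A 0.19 (95% interval -0.271 to 0.657).

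In serum-deprived siC cells, differences between growth factor and starved cells were small for the members. The median difference was -0.11 for EGF minus starved, with 40 members negative, against -0.06 for all genes, and -0.09 for HRG minus starved, with 32 negative, against -0.05 for all genes. With limma, 0 members were called for EGF against 5.23% of all genes (19 arrays, 0 against 11.7%), and 0 for HRG against 2.9% (19 arrays, 0 against 7.66%). At an unadjusted p under 0.05 there were 0 members for either, against 864 genes higher and 816 lower for EGF and 710 and 685 for HRG. The methods' t-test had 1 member for EGF (1447 of all genes) and 3 for HRG (1233 of all genes) unadjusted, and 0 members after adjustment. Both EGF arrays lay below both starved arrays for 16 members, against 31.6% of all genes, and both HRG arrays for 15 members, against 29.2%. For HRG minus EGF the median was 0.01, and limma called 0 members against 0% of genes (19 arrays, 0 against 0.073%), with 0 members at an unadjusted p under 0.05 (119 of all genes higher and 160 lower). Both comparisons with starved cells share the starved arrays.

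CYCS was the member with the largest positive difference under both growth factors. It had 7.85 and 7.95 in EGF-treated cells, against 7.71 and 7.34 in starved cells (0.38, adjusted p = 0.507), and differed by 0.39 in HRG-treated cells. ATP5F1A had 12.78 and 12.71 in EGF-treated cells, against 13.04 and 13.20 in starved cells, a difference of -0.37 (adjusted p = 0.314). UQCR11, a small subunit of complex III, differed by -0.47 with EGF and -0.54 with HRG, but its starved arrays read 7.18 and 7.91, farther apart than either difference. SDHC had 10.85 and 10.97 in HRG-treated cells, against 11.16 and 11.24 in starved cells, a difference of -0.29. Between HRG and EGF, the smallest p-values belonged to COX7B2 (0.40), SDHC (-0.18) and SDHD (0.29). Markers of other cell types moved in both directions here. Group means of CDH5 in siC cells were 9.23 with EGF, 9.24 with HRG and 6.79 when starved. In the same order, those of VWF were 5.37, 5.27 and 5.77, those of CD14 6.20, 5.73 and 5.29, and those of LYZ 5.80, 5.75 and 5.14. PECAM1 and PTPRC were detected on 0 arrays, and the part of these markers in these results was not tested.

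The siERRα response under EGF or HRG was set against that of starved cells, which both share. Over the members the median difference in response was -0.13 for EGF (19 arrays, 0.07) and -0.04 for HRG, with 0 members called by limma against 0% of genes in each, on 20 and on 19 arrays. At an unadjusted p under 0.05, 2 members were lower for EGF (444 of all genes) and 0 for HRG (118 of all genes). Under EGF, CYCS had a difference in response of -0.87 (95% interval -1.63 to -0.107, adjusted p = 0.475; 19 arrays, -0.55), ATP5PO of -1.24 (19 arrays, -0.28) and COX7A2L of -0.74 (19 arrays, -0.25), so that ATP5PO and COX7A2L lost most of it with the array that stood apart. Under HRG, SDHD had a difference in response of -0.40 (95% interval -1.21 to 0.403).

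Parental cells, grown in serum, had somewhat higher values than starved cells. These groups differ at once in serum, in the DMSO label and in the experiment they belong to, which cannot be told apart. In siC cells the median of the members was 0.20 (pSKBr3 minus starved), with 37 of 42 positive, against 0.02 for all genes, and limma called 0 members against 0.761% of genes (19 arrays, 0 against 2.23%). At an unadjusted p under 0.05, 2 members were higher, against 404 of all genes. The methods' t-test had 9 members unadjusted, against 1050 of all genes, and 0 members after adjustment. Both pSKBr3 arrays lay above both starved arrays for 25 members, against 26.3% of all genes. ATP5MJ, a small subunit of complex V, had 10.03 and 10.05 in pSKBr3 cells, against 9.56 and 9.69 in starved cells (0.42, adjusted p = 0.449). COX8A had 13.86 and 13.81 in pSKBr3 cells, against 13.43 and 13.55 in starved cells (0.35), and COX4I1 differed by 0.29. UQCR10 had 10.05 and 9.95 in pSKBr3 cells, against 9.47 and 9.48 in starved cells, a difference of 0.52.

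The members were also read array by array. The median deviation of the members from their own mean over 19 arrays was -0.219 and -0.119 in siERRα LRSKBr3 cells, against 0.0947 and 0.0226 in siC LRSKBr3 cells. It was -0.000304 and 0.11 in siERRα pSKBr3 cells, against 0.275 and 0.242 in siC pSKBr3 cells, which were the highest of all arrays. It was -0.168 and -0.119 in HRG-treated siERRα cells, against -0.0406 and 0.0131 in HRG-treated siC cells, and -0.0252 and -0.0029 in starved siERRα cells, against 0.0591 and 0.0605 in starved siC cells. In these 4 settings the siERRα arrays lay below the siC arrays. In EGF-treated cells the deviations were -0.585 and -0.0878 with siERRα, against -0.102 and 0.0243 with siC, and these overlapped. On that array the members also scattered most, with an SD of 1.07 among them, against 0.116 to 0.343 on the other 19.

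**Figure D4:**
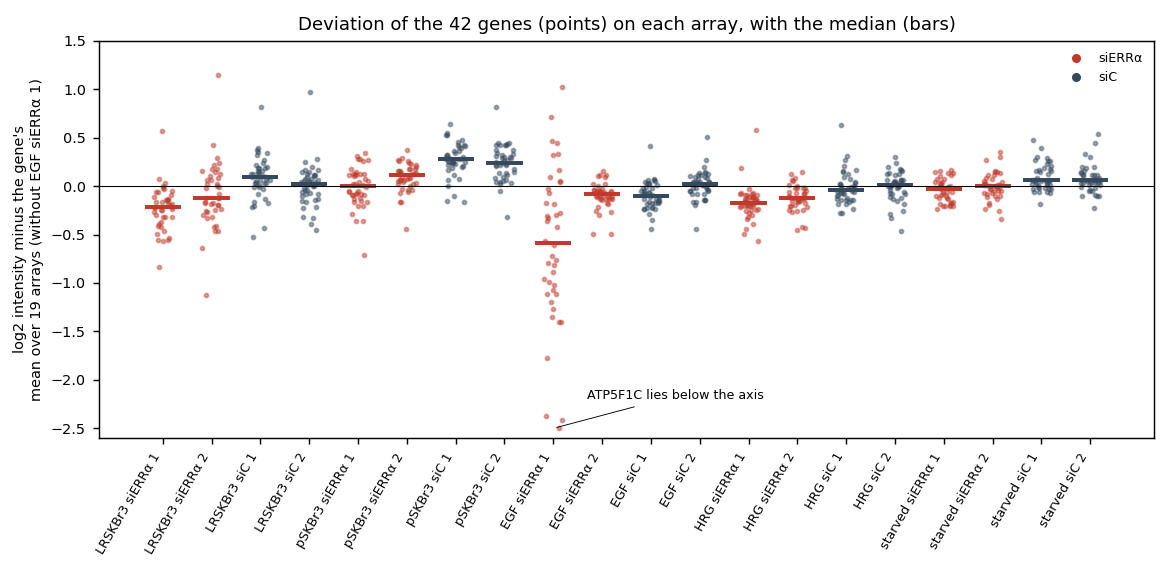
Deviation of each of the 42 members from its own mean over 19 arrays (y axis, log2 units) on every array, with siERRα left of siC in each setting. Points are members and bars their medians, which are highest on the pSKBr3 siC arrays (0.275 and 0.242) and lowest on EGF siERRα replicate 1 (-0.585), where ATP5F1C lies below the axis.

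Assembly factors and regulators gave a few calls between conditions. COA5, a factor needed to build complex IV, rose in LRSKBr3 cells, by 1.06 in siERRα cells (means 9.28 in LRSKBr3 and 8.22 in pSKBr3, adjusted p = 0.0019) and by 0.69 in siC cells (means 9.19 and 8.50, adjusted p = 0.0275). In siC cells it fell by 0.80 with EGF (means 7.91 with EGF and 8.71 in starved cells, adjusted p = 0.0107) and by 0.70 with HRG (mean 8.01, adjusted p = 0.0334). HIGD2A, which takes part in complex IV and supercomplex assembly, fell in LRSKBr3 cells by 0.55 with siERRα (adjusted p = 0.0493) and by 0.61 with siC (adjusted p = 0.0326). TMEM70, an assembly factor of the ATP synthase, fell in siERRα LRSKBr3 cells by 0.67 (adjusted p = 0.0487). In all, 3 of 35 assembly factors were called between LRSKBr3 and pSKBr3 siERRα cells, 1 higher and 2 lower, against 5% of all genes, and 2 in siC cells, 1 in each direction, against 4.5% of all genes. GABPB1, the partner subunit of GABP, differed by 1.59 with EGF and 1.47 with HRG and passed on 19 arrays only, as did the PGC-1-related coactivator PPRC1, at 0.64 with each.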

How the data were processed

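Total RNA from 20 samples was labelled with biotin and hybridized to Illumina HumanHT-12 v4 arrays. The authors deposited bead-summarized raw intensities on a linear scale with detection p-values for 47323 probes, and a table normalized per the study's methods with lumi in FlexArray, whose deposited values were read as log2 and used only as an alternative. The authors tested with SAM and Student's t-test. No sample column was left unmatched (0).

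Background was removed by normexp (limma 3.58.1 in R 4.3.3), with its parameters taken from the detection p-values and an offset of 16, followed by quantile normalization and log2. A probe was kept if its detection p-value was under 0.01 on both arrays of at least 1 group, and the kept probe of highest mean raw intensity stood for a gene, giving 9592 genes. Symbols came from the platform annotation (30113 probes with 1 symbol, 8 with several, 17202 with none). One limma fit of 10 group means over 20 arrays (10 residual degrees of freedom) with empirical Bayes moderation gave 15 comparisons, each a signed difference with the first-named group on top. Tests were two-sided, p-values were adjusted by Benjamini-Hochberg across all 9592 genes, and an adjusted p under 0.05 made a call. The fit was repeated on 19 arrays, without EGF siERRα replicate 1. With 2 arrays a group, the number of arrays limits the precision. For a gene not detected on either array of a group, the fold is a lower bound: the mean of the brighter group is set against the lowest signal detected on each dimmer array, or against the probe's signal there if that is higher. The script was tested on simulated data.

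In each comparison the text names members called on 20 or 19 arrays, or, where fewer than 3 were called, those with the smallest 3 p-values, and also the members of highest and lowest mean intensity in each complex, the isoform sets and ESRRA. Other members were named after their values were seen. Levels of different probes were not compared. The members and lists were chosen with earlier results of these data known. Alternatives were the authors' table, other background, scaling, filter and probe rules, array weights, a replicate block, only the compared groups, the methods' t-test and leaving out each array. The mean of the 4 settings other than EGF was added after seeing the data.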

Additional observations from a re-analysis of the deposited data

Results flagged for a closer look

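In 6 of the 42 members, both siERRα arrays lay above both siC arrays in 1 setting and below them in at least 1 other, a pattern found in 27% of all genes (2587 of 9592). These differences between settings were not tested except where starved cells were the comparator, and there 0 members were called by limma. SDHC had a difference of 0.16 in HRG-treated cells, against -0.12 in EGF-treated and -0.11 in pSKBr3 cells. A second SDHC probe did not share this pattern, with -0.16 in HRG-treated, 0.07 in EGF-treated and -0.32 in pSKBr3 cells. In the other 5 members the setting with higher values was EGF, which holds the array that stood apart. UQCRC1 had 0.05 in EGF-treated cells, against -0.27 in LRSKBr3, -0.18 in pSKBr3, -0.14 in HRG-treated and -0.20 in starved cells. COX4I1 had 0.12 in EGF-treated cells (19 arrays, 0.05), against -0.28 in LRSKBr3, -0.32 in pSKBr3 and -0.05 in HRG-treated cells. COX8A had 0.18 in EGF-treated cells (19 arrays, 0.20), against -0.35 in LRSKBr3 and -0.31 in pSKBr3 cells. ATP5F1B had 0.08 in EGF-treated cells (19 arrays, 0.11), against -0.17 in pSKBr3, -0.14 in HRG-treated and -0.10 in starved cells. ATP5F1D had 0.61 in EGF-treated cells (19 arrays, 0.08), against -0.10 in LRSKBr3 cells. A second ATP5F1D probe had 0.88 in EGF-treated and 0.19 in LRSKBr3 cells.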

How the results depend on the processing

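The medians of the members kept their direction in the comparisons of siERRα with siC and of LRSKBr3 with pSKBr3, whichever single array was left out. Of 1719 alternative values for named members, 1625 kept direction and side of the threshold, 36 lost the call, 57 gained it and 1 reversed. The reversed value was the difference in siERRα response between LRSKBr3 and pSKBr3 cells for ATP5MG, at 0.0115 with the mean of all detected probes (-0.20 with the brightest probe).

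Members called between LRSKBr3 and pSKBr3 siERRα cells (1, with 480 genes called in all) changed in number with the processing. There were 4 with the authors' table (525 genes in all), 4 without background correction (490) and 3 with an offset of 50 (491). The count was 2 with median scaling (423) and 3 with genes detected on all 20 arrays (387). It was 7 with array weights (total below), 2 with only the compared groups (837) and 0 with the methods' t-test (0). In siC cells the count (2, with 432 genes in all) became 5 with the authors' table (489) and 0 without a detection filter (367). It became 10 with array weights and 0 with the methods' t-test (2). The number of genes tested changes with the filter. With the authors' table, COX7B2 stayed called in siC cells at a smaller difference (0.49, adjusted p = 0.0205) and ATP5MC3 did not (-0.29, adjusted p = 0.0611). ATP5IF1 in siC cells, not called on 20 arrays, passed there with the authors' table (adjusted p = 0.0238) and with array weights (0.00562), among others. Of the 7 further members lower in siERRα LRSKBr3 cells on 19 arrays, COX6C passed in 7, UQCRC1 in 6, CYCS and SDHC in 3 each, and COX7B and ATP5PB in 1 of 10 alternatives that set aside no single array (the t-test not counted), and ATP5F1C in 0 of 9. Genes called in all with array weights numbered 1497 in siC and 1065 in siERRα cells. For pSKBr3 over starved cells, median scaling gave 3 members called (131 genes in all) and a median of 0.63, with 0.30 for all genes. It gave a median of -0.17 for the siERRα response of HRG minus starved cells, with -0.13 for all genes.

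Leaving out 1 array gave 0 to 8 members called between LRSKBr3 and pSKBr3 siERRα cells and 0 to 3 in siC cells, with the highest counts when either EGF siERRα array was left out. It gave 0 to 24 members for siERRα in EGF-treated cells, 0 to 25 for the mean of the 5 settings and 0 to 20 for the response of EGF minus starved cells. The 24, 25 and 20 came without EGF siERRα replicate 2, which leaves the array that stood apart as the lone sample of its group, assumed to vary like the others, and calls 4671, 2282 and 3551 genes in all. Medians ran between -0.46 and -0.0707 for siERRα in EGF-treated cells and between -0.38 and 0.0734 for the response of EGF minus starved cells. In the other comparisons 0 members were called whichever array was left out.

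The labels do not say that replicate numbers pair samples, although array names carry digits for replicate 1 and letters for replicate 2, and the numbers were not used as pairs. Over 45 pairs of groups, the correlation of same-numbered deviations ran between -0.0808 and 0.317 (median 0.0941), with 22 over 0.1. It was 0.131 to 0.317 in the comparisons made among EGF-treated, HRG-treated and starved cells and -0.039 to 0.0846 in those made among LRSKBr3 and pSKBr3 cells. With the replicate block, 3 members were called between LRSKBr3 and pSKBr3 cells in siERRα cells and 3 in siC cells (548 and 537 genes in all), with ATP5IF1 gained in siC cells (adjusted p = 0.0282) and COX6C and UQCRC1 in siERRα cells (0.0293 and 0.0463), and no other count of members changed. The methods' t-test gives no value for means over settings or differences in response and was not run there. With array weights the 2 arrays of a group share a weight.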
